A study of Mus musculus with 72 samples.

Results

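The liver makes most of the plasma proteins that clot blood and most of those of the complement system. Here 35 such genes were followed around the day in liver of *Scp2* KO and WT mice: 19 genes of coagulation and 16 of complement, taken as a list of names. Of these, 34 genes were measured, by 52 probes, out of 16593 genes on the array, and *C3*, the central complement component, has no probe named here. KO mice lack the whole *Scp2* locus, which encodes the lipid carriers SCP2 and SCPx, in all tissues. They had been backcrossed into the C57Bl/6 background and were set against C57Bl/6J mice, the WT group. All mice were males aged 10 to 12 weeks, kept under 12 h of light and 12 h of darkness and fed only at night for the 4 days before sampling. Liver RNA was hybridised to 72 Illumina BeadChip arrays, 36 of KO and 36 of WT, with 3 arrays of each genotype at each of 12 Zeitgeber Times (ZT0, lights on; ZT12, lights off) 2 h apart. Each array was 1 liver.

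Coagulation is a chain of proteases that ends in thrombin cleaving fibrinogen into fibrin. It starts from tissue factor and factor VII or from the contact system (factor XII, prekallikrein, kininogen and factor XI), is held back by inhibitors such as antithrombin and protein C, and is undone by plasmin. Complement is a second protease chain, entered through antibodies, through mannose-binding lectins or by spontaneous turnover, which ends in a pore assembled from its last components, C5 to C9. Hepatocytes produce nearly all of these proteins, and several of their genes are also switched by the acute phase response to inflammation.

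Levels are log2 of the normalized array signal, and KO minus WT is the difference of the means of 36 livers each, tested by limma with Benjamini-Hochberg adjustment over all 16593 genes (threshold 0.05). In KO liver, 21 of the 34 measured genes were lower than in WT and 1 was higher. Over all genes 6.38% were lower and 5.93% higher, and among the 8297 genes above the median signal, to which 33 of the 34 belong, 12.1% were lower and 11.4% higher. The median difference was -0.14 for the 34 genes and -0.000272 for all genes. In bulk liver, fewer hepatocytes and less RNA per hepatocyte cannot be told apart. Coagulation gave 14 lower and 0 higher genes of 19, with a median of -0.19. Complement gave 7 lower and 1 higher of 15, with a median of -0.13. By group means, 14 of the 34 genes were lower in KO at all 12 times. The share over all genes was not counted, so this number is not read as a result about the list.

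**Figure D1:**
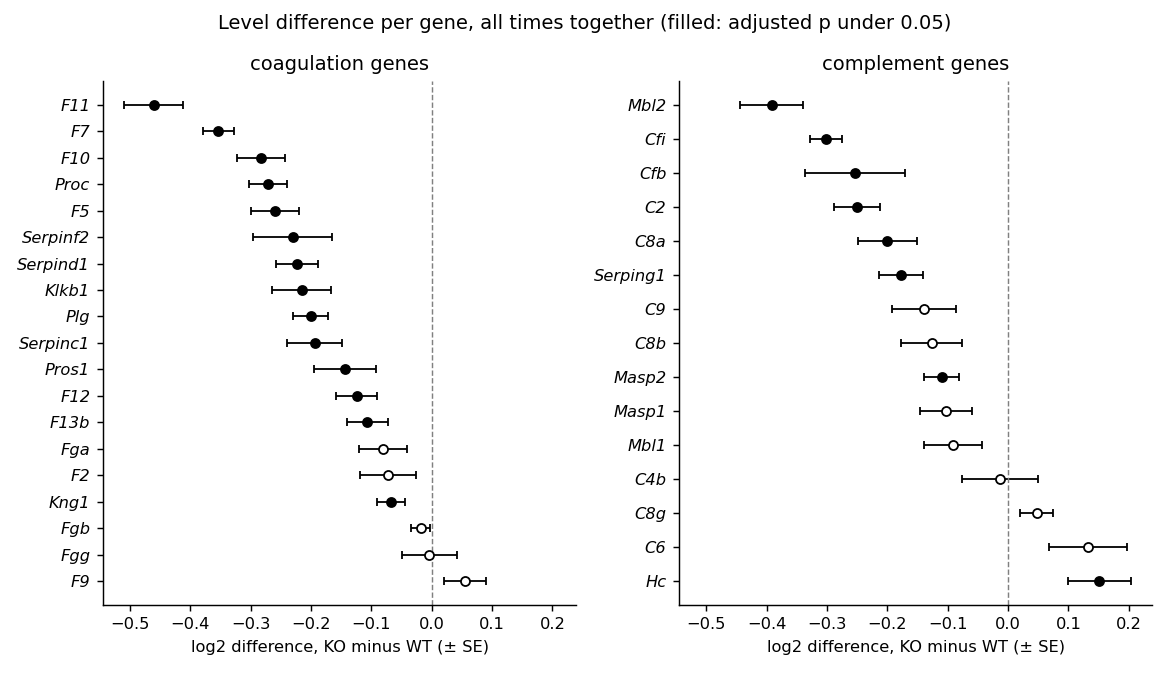
KO minus WT difference in log2 units with its SE for 19 coagulation and 15 complement genes, over 36 KO and 36 WT livers; filled points passed an adjusted p of 0.05. Most points lie left of 0, from *F11* at -0.46 and *Mbl2* at -0.39, while *Hc*, at 0.15, is the only filled point on the right.

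A few facts of the whole series bear on these values. The labels give the genotype, and *Scp2* itself was lower in KO: by 6.34 and 6.92 log2 units on a pair of probes and by 1.47 on a probe that stayed bright in KO (mean 10.29). A further probe, dim in both genotypes, gave -0.05. Why a probe stayed bright without the locus was not tested. Hepatocyte markers were bright in both genotypes, for example *Cps1* at 12.24 in KO and 12.53 in WT (means), apart from dim *Alb* (6.05 and 6.11) and *Tat* (5.75 and 5.77) probes. A WT liver of ZT12 carried a marked acute phase profile: *Lcn2* was 13.97 there, against at most 9.56 in the other 35 WT livers and at most 9.05 in the KO livers, and *Saa1* 10.92 there, against at most 8.55 in the other WT livers. Of the 34 genes, 12 had their highest value of all 72 arrays in that liver. They were *F5*, *Fgb*, *Fgg*, *Pros1*, *Plg*, *C2*, *C4b*, *C8a*, *Cfb*, *Cfi*, *Mbl1* and *Serping1*. The top of any WT range given for them below is thus that liver. *C8g* had its lowest value there. For the 34 genes, calls that rest on it are given with and without it.

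All 4 genes of the contact system were lower in KO. *F11*, which encodes factor XI, lay between 9.22 and 10.19 with a median of 9.68 in KO livers, against 9.64 to 10.48 with a median of 10.19 in WT livers. The highest KO liver thus reached only the WT median. The difference was -0.46 ± 0.05 (SE; adjusted p = 2.96e-12), or 0.727 of the WT signal, and the KO mean was lower at each of the 12 times. Its other probes gave -0.42 and -0.18, both past the threshold. *Klkb1*, which encodes prekallikrein, lay between 8.93 and 9.73 in KO (median 9.34) and between 9.16 and 10.05 in WT (median 9.57). The ranges overlapped over most of their width, and the difference was -0.22 ± 0.05 (adjusted p = 0.000679). *F12*, factor XII, had medians of 10.52 in KO and 10.66 in WT, with ranges of 10.18 to 10.75 and 10.29 to 11.01. Its difference was small, -0.12 ± 0.03 (adjusted p = 0.00578), and also past the threshold on its other probes. *Kng1*, kininogen, is among the brightest genes of the array, at a median of 13.99 in KO (range 13.75 to 14.16) and 14.05 in WT (range 13.91 to 14.21). It differed by -0.07 ± 0.02 (adjusted p = 0.0374), and the call was lost under 5 of 18 alternatives, the mean of its 3 probes among them. *Kng2*, a near-identical copy beside it, was lower by more, at -0.33 ± 0.05 (adjusted p = 4.17e-07), and cross-hybridisation between the copies was not tested.

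*F11* and *Klkb1* are neighbours on mouse chromosome 8, arose by duplication, and both had their fitted peak in the light phase. Their promoters are shown because these genes shared a level difference and a daily phase. Each window runs from 250 bases before to 50 bases after the RefSeq start (build GRCm38.p6, minus strand for both), chr8:45261982-45262281 for *F11* and chr8:45294786-45295085 for *Klkb1*. Capitals mark the letters TTNNGCAA, a core of C/EBP sites.
F11: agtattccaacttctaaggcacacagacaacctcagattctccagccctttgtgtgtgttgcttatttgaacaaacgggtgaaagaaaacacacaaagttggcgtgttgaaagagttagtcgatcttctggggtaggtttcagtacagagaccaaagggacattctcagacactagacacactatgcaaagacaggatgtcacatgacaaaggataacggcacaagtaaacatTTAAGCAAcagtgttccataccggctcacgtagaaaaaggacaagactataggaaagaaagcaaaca
Klkb1: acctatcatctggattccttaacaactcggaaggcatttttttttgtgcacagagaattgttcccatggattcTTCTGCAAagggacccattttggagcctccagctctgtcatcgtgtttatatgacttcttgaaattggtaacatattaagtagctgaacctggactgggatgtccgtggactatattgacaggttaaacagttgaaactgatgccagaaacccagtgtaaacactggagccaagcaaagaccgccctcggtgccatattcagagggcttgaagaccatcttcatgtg
The match in *F11* runs from -17 to -10 and that in *Klkb1* from -177 to -170, counted from the start. Of the 35 genes, 26 have a promoter in the table (27 windows), and 8 of these windows, or 29.6%, hold TTNNGCAA on either strand, against 10.8% of all 32851 windows. Its other carriers were *C3*, *C9*, *F9*, *Fga*, *Fgb* and *Serpinc1*. GTTAATNAT, the left arm of the HNF1 palindrome, stood in 11.1% of the windows (*F13b*, *Fga*, *Hc*) and in 0.801% of all, and CTGGGAA, a STAT3-type core, in 18.5% and 11.1%. CAAAGTCCA, a form of the HNF4 site, stood in none of the 27 windows and in 0.475% of all. A match in such a short window is a description of letters and not a site.

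Of the vitamin K-dependent genes *F2*, *F7*, *F9*, *F10*, *Proc* and *Pros1*, 4 were lower in KO. *F7* encodes factor VII, the partner of tissue factor. It had the smallest p of the 34 genes. KO livers lay between 7.67 and 8.19 (median 7.99) and WT livers between 8.13 and 8.60 (median 8.35). The ranges met only between 8.13 and 8.19. The difference was -0.35 ± 0.03 (adjusted p = 1.37e-19), or 0.783 of the WT signal. *F10*, factor X, lies next to *F7* on chromosome 8. It ranged from 10.75 to 11.57 in KO (median 11.09) and from 11.02 to 11.58 in WT (median 11.42), and differed by -0.28 ± 0.04 (adjusted p = 2.29e-08). *Proc*, protein C, an inhibitor that cuts factors V and VIII, ranged from 11.06 to 11.70 in KO (median 11.36) and from 11.46 to 11.85 in WT (median 11.64). It differed by -0.27 ± 0.03 (adjusted p = 5.46e-11), and by -0.30 on its other probe. *Pros1*, the cofactor of protein C, gave -0.14 ± 0.05 and stood at the threshold (adjusted p = 0.0499), with KO livers at 8.16 to 8.88 (median 8.57) and WT livers at 8.40 to 9.95 (median 8.69). The call was lost under 11 of 18 alternatives, while without the acute phase liver, where *Pros1* had its top value, it was -0.11 (adjusted p = 0.0473). *F2*, prothrombin, and *F9*, factor IX, were not called, at -0.07 ± 0.05 (adjusted p = 0.418) and 0.06 ± 0.04 (adjusted p = 0.416). The *F9* value depended on the set of WT arrays (the sets are described further on), with WT means of 11.40, 11.44 and 11.70 (sets 6, 10 and 9). Without WT set 9 *F9* was called higher in KO (0.15, adjusted p = 0.000252), and without WT set 6 it was -0.00209 (adjusted p = 0.988).

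**Figure D2:**
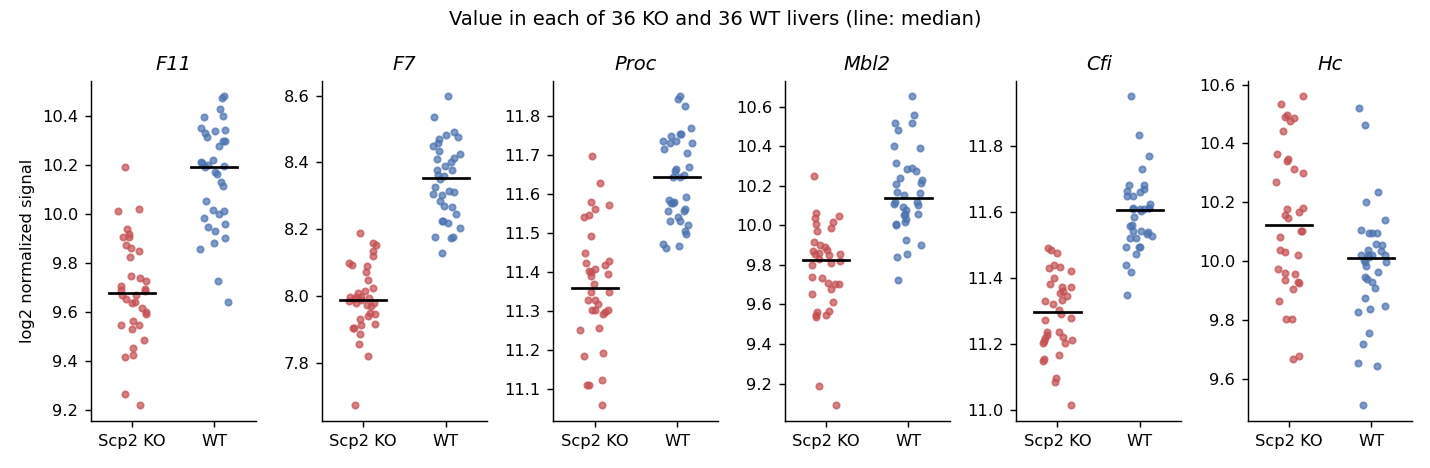
log2 normalized signal of 6 genes in each of 36 KO and 36 WT livers, with the median as a line. *F7* overlaps only between 8.13 and 8.19, *Cfi*, *F11*, *Proc* and *Mbl2* are shifted down in KO with overlap, and *Hc* overlaps over most of its range.

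Cofactor V and the crosslinking factor followed. *F5*, the cofactor of factor X, ranged from 7.36 to 8.05 in KO (median 7.69) and from 7.49 to 8.30 in WT (median 7.95), a difference of -0.26 ± 0.04 (adjusted p = 4.75e-07). *F13b*, the carrier subunit of the fibrin-crosslinking factor XIII, ranged from 9.89 to 10.47 in KO (median 10.19) and from 9.80 to 10.56 in WT (median 10.32), a difference of -0.11 ± 0.03 (adjusted p = 0.0228). The fibrinogen chains were not called: *Fga* -0.08 ± 0.04 (adjusted p = 0.218), *Fgg* 0.00 ± 0.05 (adjusted p = 0.986) and *Fgb* -0.02 ± 0.02 (adjusted p = 0.602). The only *Fgb* probe was dim, at the 15.5th percentile of gene means, and its range was 5.76 to 5.99 in KO and 5.79 to 6.11 in WT.

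All 4 inhibitors of coagulation in the list were lower in KO, *Proc* and *Pros1* above being the first of them. *Serpind1*, heparin cofactor II, a thrombin inhibitor, ranged from 10.12 to 10.83 in KO (median 10.49) and from 10.42 to 10.95 in WT (median 10.69), with a difference of -0.22 ± 0.03 (adjusted p = 6.30e-07). *Serpinc1*, antithrombin, ranged from 7.62 to 8.52 in KO (median 8.13) and from 7.92 to 8.75 in WT (median 8.33), with a difference of -0.19 ± 0.05 (adjusted p = 0.00118). Its second probe gave -0.10 ± 0.09 and was not called. The genes of fibrinolysis were both lower: *Plg*, plasminogen, ranged from 11.62 to 12.11 in KO (median 11.82) and from 11.83 to 12.46 in WT (median 12.03), with a difference of -0.20 ± 0.03 (adjusted p = 5.76e-08). Its other probes gave -0.44 past the threshold and -0.18, which was not called (adjusted p = 0.0628). *Serpinf2*, alpha-2-antiplasmin, which inhibits plasmin, ranged from 11.06 to 12.16 in KO (median 11.60) and from 11.07 to 12.35 in WT (median 11.88), with a difference of -0.23 ± 0.07 (adjusted p = 0.00859). Thus genes that favour clotting and genes that oppose it were lower side by side.

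In complement, the largest difference was in the lectin pathway. *Mbl2*, mannose-binding lectin C, ranged from 9.09 to 10.25 in KO (median 9.83) and from 9.72 to 10.65 in WT (median 10.14). It differed by -0.39 ± 0.05 (adjusted p = 6.44e-09), or 0.762 of the WT signal, and the KO mean was lower at each of the 12 times. *Masp2*, the protease that lectins activate to cleave C4 and C2, ranged from 10.48 to 10.90 in KO (median 10.67) and from 10.55 to 11.05 in WT (median 10.76), a difference of -0.11 ± 0.03 (adjusted p = 0.00363). Of its other probes 1 gave -0.12 past the threshold and 1 gave -0.05 (adjusted p = 0.603). *Mbl1* (-0.09 ± 0.05, adjusted p = 0.273) and *Masp1* (-0.10 ± 0.04, adjusted p = 0.116) were not called.

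The convertase genes *C2* and *Cfb* are neighbours on chromosome 17, and both were lower. *C2*, the protease of the classical and lectin convertase, ranged from 10.39 to 11.08 in KO (median 10.70) and from 10.65 to 11.33 in WT (median 10.92), a difference of -0.25 ± 0.04 (adjusted p = 2.49e-07). *Cfb*, its counterpart in the alternative pathway, had the largest SD of the 34 genes in either genotype. It ran from 8.13 to 9.41 in KO (median 8.97) and 8.48 to 10.36 in WT (median 9.14). Its difference was -0.25 ± 0.08 (adjusted p = 0.0295), and -0.22 (adjusted p = 0.0471) without the acute phase liver, which gave the 10.36. *C4b* did not pass, at -0.01 ± 0.06 (adjusted p = 0.954), and shares near-identical sequence with *C4a*.

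Both inhibitors of complement were lower in KO. *Cfi*, factor I, the protease that inactivates C3b and C4b, ranged from 11.01 to 11.49 in KO (median 11.30) and from 11.35 to 11.95 in WT (median 11.60), a difference of -0.30 ± 0.03 (adjusted p = 5.79e-15). Of the 36 KO livers 13 were above the lowest WT liver. *Serping1*, the C1 inhibitor, which also restrains the contact system, ranged from 11.61 to 12.24 in KO (median 11.86) and from 11.83 to 12.64 in WT (median 12.06), a difference of -0.18 ± 0.04 (adjusted p = 0.000128).

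The terminal components were mixed, with 1 lower and 1 higher of 6. *C8a*, the alpha chain of C8, ranged from 8.49 to 9.57 in KO (median 9.01) and from 8.78 to 9.74 in WT (median 9.23), a difference of -0.20 ± 0.05 (adjusted p = 0.00178). *Hc*, which encodes C5, was the one gene higher in KO: 9.67 to 10.56 (median 10.12), against 9.51 to 10.52 in WT (median 10.01), a difference of 0.15 ± 0.05 (adjusted p = 0.0421). The KO mean was higher at 10 of 12 times. The difference rested on 1 set of 12 KO arrays (the sets are described further on), with set means of 10.03, 10.04 and 10.35 in KO (sets 4, 5 and 6) and 9.978 to 9.998 in WT. Without KO set 6 it was 0.05 (adjusted p = 0.750), and the call was lost under 7 of 18 alternatives. *C6* (0.13 ± 0.07, adjusted p = 0.223), *C8b* (-0.13 ± 0.05, adjusted p = 0.0936), *C8g* (0.05 ± 0.03, adjusted p = 0.364) and *C9* (-0.14 ± 0.05, adjusted p = 0.0756) were not called. *C9* gave -0.17 (adjusted p = 0.0117) on another of its probes and -0.02 (adjusted p = 0.785) on the third, and *C8b* passed without the acute phase liver (-0.14, adjusted p = 0.0463).

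*C8a* and *C8b* lie on chromosome 4, which also carries *Scp2*, 27 and 28 measured genes from it. Of the 26 measured genes between them and *Scp2*, 4 were higher and 5 lower in KO, and of the 20 around *C8a* and *C8b*, 3 were higher and 1 lower. Over all 968 measured genes of chromosome 4 there were 79 higher and 74 lower. For *C8a*, an effect of chromosome segments that travelled with the deleted allele and an effect of the deletion cannot be told apart. *Masp2* is on the same chromosome, 455 measured genes away.

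The array columns carry series numbers, 4, 5 and 6 for KO and 6, 9 and 10 for WT, called sets here, with 12 arrays of each. What the numbers stand for is not stated. In 21 of the 34 genes every KO set mean was below every WT set mean, against 10.5% of all genes, and in *Hc* every KO set mean was above, against 10.2%, with sets 4 and 5 above WT by far less than set 6. For set means, too, the share among genes above the median signal, to which 33 of the 34 belong, was not counted. *F12*, *F13b* and *Kng1*, though called, had set means that overlapped.

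At single times, with 3 livers of each genotype, 7 of the 34 genes passed at 1 or more ZT, against 4.15% of all genes, and each of these 20 calls was lower in KO. The share among genes above the median signal was not counted for single times. *F7* passed at 9 of the 12 times and *F11* at 6. *F7* differed most at ZT12, with 7.94 ± 0.04 in KO and 8.46 ± 0.07 in WT (SD), or -0.52 (adjusted p = 7.27e-06). Without the acute phase liver this difference was -0.48 (adjusted p = 0.000491). *F11* differed most at ZT8, with 9.78 ± 0.15 in KO and 10.43 ± 0.04 in WT (SD), or -0.66 (adjusted p = 0.00199). *Proc* passed at ZT4 and *Serpind1* at ZT2. *Plg*, *Cfi* and *Mbl1* passed at ZT12 alone, and all of these ZT12 calls were lost without the acute phase liver, with *Mbl1* at -0.49 with it and -0.14 without it. With median scaling in place of quantile normalization no single-time call remained. No gene was tested as specific to a time.

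The daily rhythm was fitted per genotype as a cosine of 24 h (harmonic regression, F-test, adjusted over all genes). The amplitude is the height of the cosine above its mean in log2 units, and the acrophase is the fitted time of the peak. In KO, 9 of 34 genes were rhythmic, against 13.7% of all genes, and in WT 7 were, against 15.8%. *Serpinf2*, *Klkb1*, *Fga*, *Pros1* and *Serpinc1* were rhythmic in both, 5 genes against 9.43% of all. Among genes above the median signal 26.6% were rhythmic in KO and 30.7% in WT, and the shares of the 34 genes together are not above these. Most of the 34 lie far above that median, and genes matched to them in brightness were not compared. By group, coagulation had 7 rhythmic genes of 19 in KO and 6 in WT, and complement 2 of 15 in KO and 1 in WT.

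**Figure D3:**
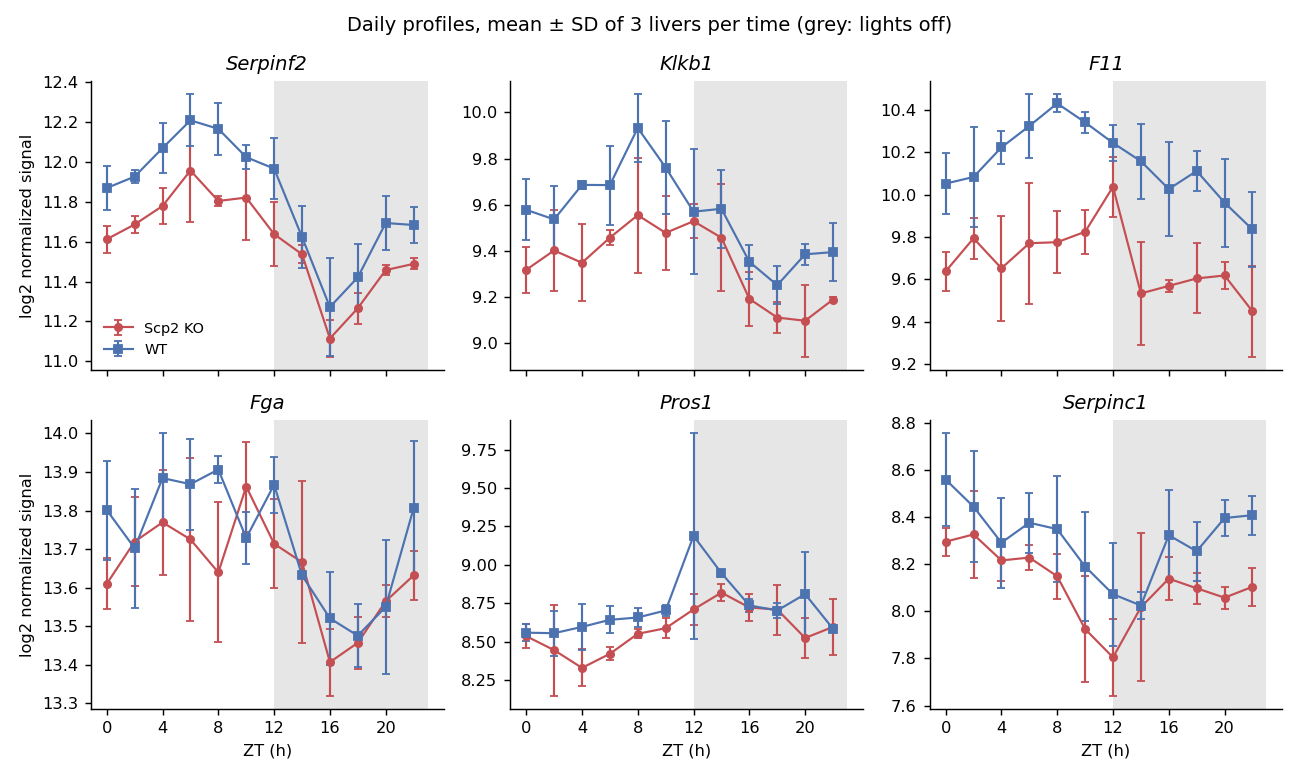
Mean log2 signal with SD of 3 livers per time for the 6 coagulation genes rhythmic in WT, KO in red and WT in blue, lights off in grey. *Serpinf2*, *Klkb1* and *F11* are high in the light phase, *Pros1* is high around and after lights off and *Serpinc1* is low around ZT12 to ZT14. The WT mean and SD of *Pros1* at ZT12 rest on the acute phase liver, at 9.95 against 8.705 and 8.91 in the other WT livers of ZT12.

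*Serpinf2* had the largest rhythm of all 34 genes. It was highest at ZT6 and lowest at ZT16 in both genotypes, at means of 11.96 and 11.11 in KO and 12.21 and 11.27 in WT. The amplitude was 0.30 ± 0.03 in KO and 0.37 ± 0.04 in WT (SE), and the acrophases, ZT6.05 and ZT5.94, differed by 6.62 ± 34.2 min (KO minus WT). Its other probes gave amplitudes of 0.32 in KO and 0.38 to 0.40 in WT. The peak-to-trough ratio was 1.52-fold in KO and 1.67-fold in WT. Its promoter (GRCm38.p6, chr11:75439452-75439751, minus strand) is shown because its rhythm is the strongest. It held none of the clock-linked letters CACGTG (E-box), TTATGTAA (D-box) or TAGGTCA (ROR element), so no letters are in capitals.
Serpinf2: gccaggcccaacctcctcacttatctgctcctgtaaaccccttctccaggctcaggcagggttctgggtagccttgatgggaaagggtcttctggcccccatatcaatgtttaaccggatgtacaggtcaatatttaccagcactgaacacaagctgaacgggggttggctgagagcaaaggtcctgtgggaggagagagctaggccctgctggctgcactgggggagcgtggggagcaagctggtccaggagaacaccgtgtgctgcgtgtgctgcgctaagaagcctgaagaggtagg
Over all windows these letters stood in 7.15%, 0.938% and 2.61%. Among the 27 windows of the list only *C6* held any of them, the ROR letters, and *C6* was not rhythmic. Absence from 300 bases says nothing of sites elsewhere. The search was for exact letters, and the *Serpinf2* window does hold AGGTCA, the ROR letters without the first T.

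*Klkb1* and *F11*, the neighbours of the contact system, peaked in the second part of the light phase. *Klkb1* had amplitudes of 0.20 ± 0.03 in KO and 0.24 ± 0.03 in WT, with acrophases of ZT8.24 and ZT7.24, a difference of 59.8 ± 51.2 min. *F11* had 0.15 ± 0.04 and ZT8.52 in KO, where it did not pass (adjusted p = 0.0603), and 0.22 ± 0.03 and ZT8.64 in WT, where it did. The difference of its rhythm between genotypes was not called (adjusted p = 0.900). *Fga*, the fibrinogen alpha chain, had 0.13 ± 0.03 in KO and 0.17 ± 0.03 in WT, with acrophases of ZT6.55 and ZT5.75, and its second probe had 0.19 and 0.20. The *Fga* promoter (GRCm38.p6, chr3:83025903-83026202, plus strand) is shown since it carried both liver-factor cores: TTNNGCAA from -135 to -128 and, on the other strand, GTTAATNAT from -46 to -38, both in capitals.
Fga: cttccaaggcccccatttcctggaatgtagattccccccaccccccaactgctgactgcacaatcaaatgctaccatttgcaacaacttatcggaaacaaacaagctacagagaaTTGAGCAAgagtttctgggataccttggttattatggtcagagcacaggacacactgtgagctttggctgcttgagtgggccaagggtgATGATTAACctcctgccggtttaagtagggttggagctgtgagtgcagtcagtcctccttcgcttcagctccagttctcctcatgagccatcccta
*Fgg*, the gamma chain next to it, passed in KO alone, at 0.14 ± 0.04 with an acrophase of ZT3.51, against 0.12 ± 0.05 and ZT6.23 in WT (adjusted p = 0.161). The dim *Fgb* probe showed amplitudes of about 0.01 in both.

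*Pros1* and *Serpinc1* kept other hours. *Pros1* peaked after lights off, at ZT15.2 in KO (amplitude 0.18 ± 0.03) and ZT13.5 in WT (0.19 ± 0.05). Without the acute phase liver the WT amplitude was 0.14 and the acrophase ZT14.2. *Serpinc1* peaked near lights on, at ZT1.37 in KO (0.16 ± 0.04) and ZT0.557 in WT (0.18 ± 0.04), and its second probe was not rhythmic in either genotype. *Serpind1* passed in KO alone, with 0.13 ± 0.03 at ZT7.65, against 0.07 ± 0.03 at ZT5.43 in WT.

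In complement, *Masp1*, the other lectin protease, passed in KO, with 0.18 ± 0.03 at ZT13.0, against 0.08 ± 0.04 at ZT15.0 in WT (adjusted p = 0.387). *Mbl1* passed in KO, with 0.17 ± 0.03 at ZT4.33, and had 0.15 ± 0.05 at ZT5.50 in WT (adjusted p = 0.124). Without the acute phase liver, whose 11.25 was its top value, the WT amplitude of *Mbl1* was 0.17 at ZT4.04 and passed (adjusted p = 5.45e-05). *C8g*, the gamma chain of C8, had 0.02 ± 0.02 in KO, against 0.11 ± 0.03 at ZT0.947 in WT, where it passed. That call was lost without the acute phase liver (0.09, adjusted p = 0.0715), which had the lowest *C8g* of all arrays. Among complement genes not called in either genotype, the amplitude in WT was 0.08 at most.

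**Figure D4:**
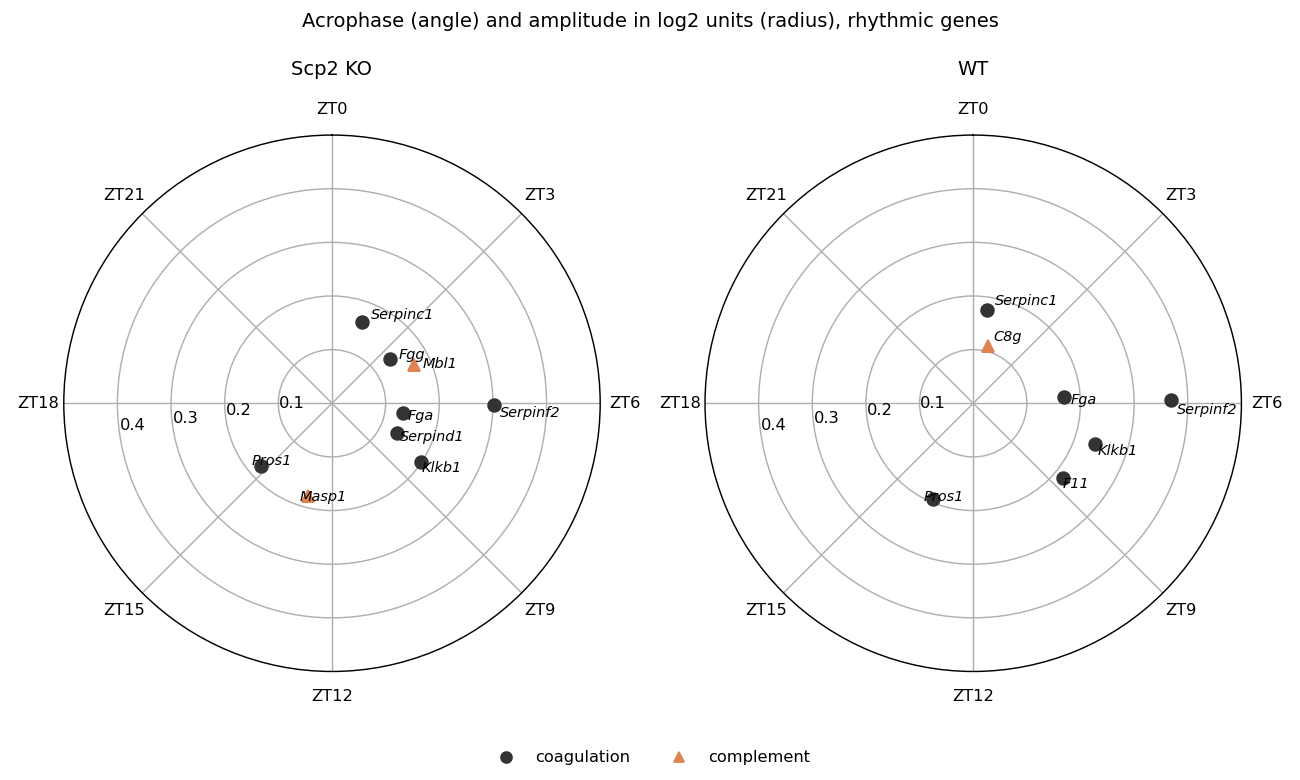
Acrophase (angle, in ZT) and amplitude (distance from the centre, in log2 units) of the genes that passed the 24 h test, 9 in KO and 7 in WT. Coagulation genes other than *Pros1* lie between ZT0 and ZT9, and *Serpinf2* is farthest out at 0.30 in KO and 0.37 in WT.

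No gene of the 34 differed in rhythm between genotypes (limma interaction F-test, 0 calls, against 0.127% of all genes). Below an unadjusted threshold of 0.05 limma gave *C8g* alone (adjusted p = 0.439). The 5 genes rhythmic in both had fitted delays in KO of 6.62 to 103 min, with SEs of 34.2 to 73.5 min, and of 18.4 to 66.3 min without the acute phase liver. The fitted amplitude was lower in KO in 5 of 5 with that liver and in 4 of 5 without it, where *Pros1* had 0.18 in KO and 0.14 in WT. None of these differences was called. A component of 12 h was called for 0 genes in KO (1.21% of all) and 0 in WT (1.49% of all) by limma, with 3 genes in KO (*F5*, *Serpinc1*, *Masp1*) and 1 in WT (*Serpinf2*) at an unadjusted p below 0.05.

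The daily courses of coagulation and complement as whole groups are given side by side with no test, since genes are not replicates. The mean over 19 coagulation genes had a fitted amplitude of 0.04 ± 0.01 in KO and 0.06 ± 0.01 in WT, with acrophases of ZT7.44 and ZT7.11. Set by set, the acrophases lay between ZT6.84 and ZT8.49 in KO and between ZT5.87 and ZT7.59 in WT. The coagulation mean was lowest at ZT18 in both, at -0.25 in KO and -0.09 in WT, each relative to the WT mean of every gene. The mean over 15 complement genes had 0.02 ± 0.02 in KO and 0.01 ± 0.02 in WT, no larger than its error, and its acrophases spread from ZT8.10 to ZT20.7 over KO sets and from ZT5.72 to ZT22.5 over WT sets. Among the rhythmic coagulation genes 6 of 7 in KO and 5 of 6 in WT peaked in the light phase, against 53.0% and 52.2% of all rhythmic genes.

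**Figure D5:**
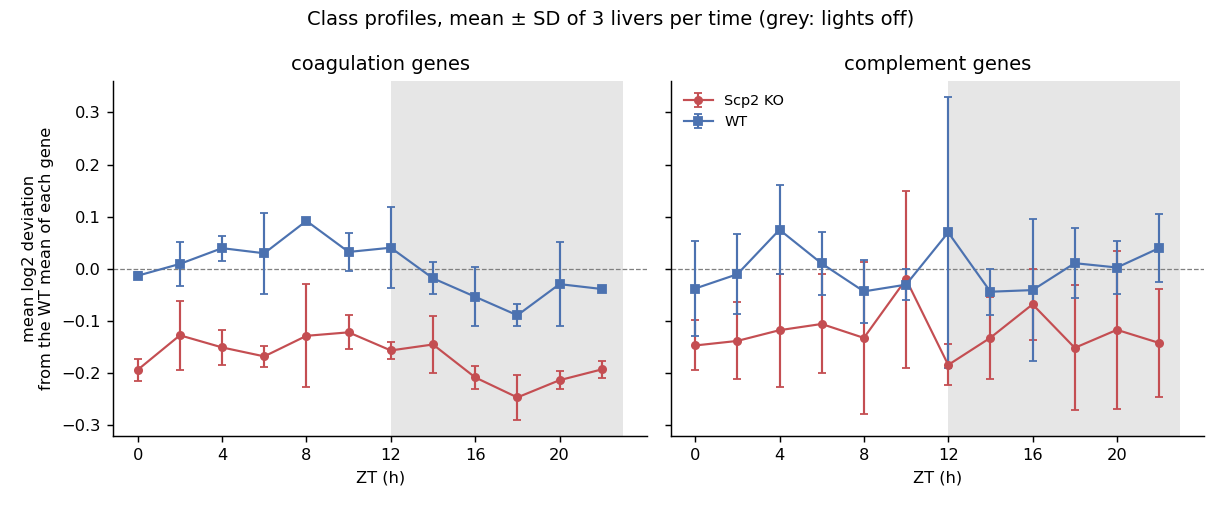
Mean log2 deviation from each gene's WT mean over 19 coagulation genes (left) and 15 complement genes (right), mean and SD of 3 livers per time, KO in red and WT in blue, lights off in grey. Coagulation shows a shallow daytime rise in both genotypes with KO below WT at every time, and complement shows no clear course, with a wide WT spread at ZT12.

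Other genes listed with these systems were measured too. Not all of them are clotting or complement factors. Their counts stand beside 6.38% lower and 5.93% higher over all genes, or 12.1% and 11.4% among genes above the median signal. Of 25 further genes listed with coagulation 7 were lower and 0 higher in KO. The largest difference was in *Hgfac* (10.44 in KO and 11.13 in WT, -0.69 ± 0.04, adjusted p = 7.44e-23), the activator of hepatocyte growth factor. Then came *Kng2*, *Serpinf1* (-0.21) and *Tfpi* (-0.20), the inhibitor of tissue factor. Of 25 further complement genes 5 were lower and 1 higher, led by *C1s1* (6.97 in KO and 7.33 in WT, -0.37 ± 0.05, adjusted p = 3.93e-09), a protease of the classical pathway, then *Vtn* (-0.33), *Clu* (-0.19) and *C1rl* (-0.18). The one higher was *C4a* (0.06). Abundant secreted proteins of liver outside both systems were measured as well: 8 of 14 were lower and 0 higher, with *Itih2* at -0.42, *Serpina6* at -0.29, *Itih1* at -0.29 and *Ahsg* at -0.22. Of 21 acute phase genes 8 were lower and 1 higher: *Itih4* -0.39, *Lbp* -0.35, *Saa3* -0.31 and *Saa4* 0.51. These values include the acute phase WT liver and are not given without it. *Saa3* was 9.72 in that liver, against at most 7.03 in the other WT livers. Of 15 hepatocyte transcription factors 2, *Esr1* (-0.22) and *Nr5a2* (-0.19), were lower, a share near that of genes above the median signal.

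Markers of cell types were counted against the same shares over all genes. Of 9 measured hepatocyte markers 5 were lower and 0 higher, of 6 periportal markers 5 lower, of 11 pericentral markers 1 lower and 2 higher, of 14 endothelial markers 6 lower, of 8 stellate markers 2 lower, and of 11 Kupffer cell and macrophage, 10 blood cell and 4 cholangiocyte markers 0 in either direction at the adjusted threshold by limma (2, 4 and 0 at an unadjusted threshold of 0.05). The log2 of the summed hepatocyte marker signal ran from 15.88 to 16.14 over KO livers and up to 16.21 over WT livers, whose lowest liver was above the lowest KO liver, and that of the periportal markers from 13.7 to 14.2 and from 13.4 to 14.6. For Kupffer cell and macrophage markers it ran from 10.1 to 11.4 over KO livers and from 10.1 to 12.3 over WT livers. With 1 lower and 2 higher of 11, the pericentral counts are not read as a difference from those shares. The part of the marker differences in the differences of the clotting and complement genes was not tested.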

How the data were processed

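Liver RNA of 72 arrays (36 *Scp2* KO, 36 WT) was analysed, and the genes of the list, the other lists and the tests were chosen with earlier results of these data known. The authors deposited average signal intensity per probe, not normalized, and a table of log2 values, per the labels processed with Partek, whose scale is log2 and whose normalization is between arrays; aligner and build do not apply. Titles give replicate numbers for the deposited log2 table, while intensity columns carry genotype, time and set.

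Intensities were background-corrected by normexp (offset 50), quantile normalized and put on the log2 scale with limma 3.58.1 in R 4.3.3. Of 25697 probes, 23978 have 1 gene name in GEO's platform annotation, 0 several and 1719 none here, and the brightest probe stood for a gene. Different probes are not compared in level. KO minus WT was fitted over all arrays, single times in a model of 24 groups, and rhythms as cosines of 24 h and 12 h. p-values were adjusted by Benjamini-Hochberg over 16593 genes (threshold 0.05). Level p-values measure the spread over 36 livers per genotype, times of day included. Single-time p-values rest on the spread within groups of 3 livers, pooled over all 24 groups, and not on the SD of a group. The number of arrays limits the precision. Median signal per array ran from 95.5 to 114 in KO and from 96.1 to 114 in WT. Of the genes passing a test for the level or the rhythm difference, full values are given, with amplitude and acrophase for rhythmic genes. Up to 4 genes of each other list are named, by size of difference. Scripts were tested on simulated data. Alternatives covered the deposited log2 values, background, scaling, dim probes, probe means, blocks, thresholds, sets left out and the acute phase liver. Promoter sequences are RefSeq's, build GRCm38.p6.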

Additional observations from a re-analysis of the deposited data

How the results depend on the processing

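Of 21 lower genes, 13 kept direction and call under all 18 alternatives run for the level, and 8 (*Cfb*, *F12*, *F13b*, *Kng1*, *Masp2*, *Pros1*, *Serpinc1*, *Serpinf2*) lost the call under 1 or more; 0 called values changed sign. The count of genes called for the level (22) ran from 17 without WT set 10 to 21 without KO set 5 when a set was left out, and the count lower (21) from 16 to 19. With median scaling 16 were lower and 0 higher. Of 16 rhythm calls, 7 held under all 19 alternatives. In KO, 9 rhythmic genes became 5 with median scaling and 5 with the mean of 3 arrays per time, and ran from 5 (without KO set 4) to 11 when a set was left out. In WT, 7 became 4 with the mean of 3 arrays per time and ran from 5 to 7. The 20 single-time calls became 0 with median scaling, 11 at a threshold of 0.01 and 32 at 0.1, and ran from 11 to 15 when a set was left out (11 without KO set 4, 12 without KO set 5, 12 without KO set 6). The rhythm difference and the 12 h component had 0 calls under every alternative run for them. The cause of these shifts was not tested, except that fewer arrays enter when a set is left out. Without 2 KO arrays of set 6 at ZT6 and ZT16, the lowest in rank correlation (0.855 and 0.857, median of the other arrays 0.897), an alternative chosen after the data were seen, 21 genes were called.

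The labels do not say what a replicate number shares. Over 36 same-numbered pairs of KO and WT the median correlation of deviations was 0.13, above 0.1 in 22 and not in every pair, against -0.07 and 10 of 72 pairs of other numbers, and 24 of 36 KO arrays correlated best with their own number, a hint from the data and not the design. With the replicate block and ZT as a factor together, 23 genes were called for the level, against 21 with neither on the deposited log2 table. *Fga* (-0.08, adjusted p = 0.0461) and *Pros1* (-0.13, adjusted p = 0.0112) were added. ZT as a factor without the block, on the main values, also called both by limma (adjusted p = 0.0481 and 0.00924), so these additions are not credited to the block. With the block, 9 genes were rhythmic in KO, 8 rhythmic in WT, 0 called for the rhythm difference and 21 at single times.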
